A study of Mus musculus with 46 samples.

Results

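A set of 10 genes of fibroblast growth factor (FGF) signalling was followed through RNA-seq of whole mouse gonads: the ligand gene Fgf9, the 4 receptor genes Fgfr1, Fgfr2, Fgfr3 and Fgfr4, the feedback inhibitor genes Spry1, Spry2, Spry4 and Dusp6, and the transcription factor gene Etv5. They were taken by name from the deposited tables, where all 10 were found among 33331 gene rows, and all 10 passed the filter on low counts in every comparison below. The series sequenced poly(A) RNA of gonad pairs from E12.5 embryos with induced mutations in Enh13, an enhancer that lies far from Sox9, the gene it controls. They are labelled 1bp-ins, 3bp-12bp-del and 3bp-del, and the labels do not spell out what 3bp-12bp-del stands for.

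The 46 libraries form 12 groups, 24 libraries from XX and 22 from XY embryos. XX and XY embryos were each represented by a wild type (WT), by heterozygotes of 1bp-ins and of 3bp-del, and by homozygotes of these 2 mutations and of 3bp-12bp-del. WT and heterozygous groups had n = 3, and homozygous groups had n = 5 except the XY 3bp-12bp-del homozygotes with n = 3. No strain or transgene is named. Nothing states whether replicates came from separate litters, so p-values measure only the spread between these samples, which may be technical. A whole gonad holds somatic, germ, endothelial and blood cells, and for each result below fewer cells of a type and less RNA per cell cannot be told apart.

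FGFs are secreted proteins that bind receptor tyrosine kinases together with heparan sulfate chains on the cell surface. Bound receptors activate the RAS-ERK cascade, and active ERK raises the transcription of its own inhibitors, the Sprouty proteins and the phosphatase DUSP6, and of the ETS factors ETV4 and ETV5, which are widely used as readouts of FGF activity. In the fetal testis FGF9 is secreted by Sertoli cells, the supporting cells that express SOX9. FGF9 acting through FGFR2 helps to keep SOX9 expressed and opposes WNT4, a signal of the ovarian pathway, and XY mice that lack FGF9 or FGFR2 can develop ovarian tissue.

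The 250 bases before the annotated start were read from RefSeq (GRCm38.p6) for 8 of the 10 genes. They are shown for the ligand, for the receptor gene that differed most between the sexes, and for 2 inhibitor genes that differed in the same direction as the ligand, to show what these flanks hold. The windows are chr14:58072436-58072685 (plus strand) for Fgf9, inside the annotated span of that gene, chr7:130266809-130267058 (minus strand) for Fgfr2, chr10:99262981-99263230 (plus strand) for Dusp6 and chr14:105896820-105897069 (minus strand) for Spry2. Each is printed 5′ to 3′ on the strand of the gene.
Fgf9: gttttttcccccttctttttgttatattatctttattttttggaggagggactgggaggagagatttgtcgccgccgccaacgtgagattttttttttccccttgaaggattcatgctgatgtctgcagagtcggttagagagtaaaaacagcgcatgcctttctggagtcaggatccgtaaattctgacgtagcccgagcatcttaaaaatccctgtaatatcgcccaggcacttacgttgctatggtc
Fgfr2: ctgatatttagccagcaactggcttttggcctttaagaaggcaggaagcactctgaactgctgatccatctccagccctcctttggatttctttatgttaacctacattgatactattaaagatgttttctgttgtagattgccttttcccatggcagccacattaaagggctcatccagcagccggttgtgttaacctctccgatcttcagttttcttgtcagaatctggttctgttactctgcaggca
Dusp6: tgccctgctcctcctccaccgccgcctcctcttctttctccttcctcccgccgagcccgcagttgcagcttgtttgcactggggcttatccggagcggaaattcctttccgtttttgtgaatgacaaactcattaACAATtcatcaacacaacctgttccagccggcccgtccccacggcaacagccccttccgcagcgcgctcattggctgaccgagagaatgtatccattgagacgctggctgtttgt
Spry2: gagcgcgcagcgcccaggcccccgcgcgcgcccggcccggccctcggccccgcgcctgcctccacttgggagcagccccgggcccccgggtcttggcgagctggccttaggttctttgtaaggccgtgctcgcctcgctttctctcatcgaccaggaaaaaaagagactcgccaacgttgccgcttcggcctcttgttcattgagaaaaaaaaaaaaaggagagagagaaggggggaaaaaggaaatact
Capitals mark matches, on either strand, to ACAAT, a core bound by SOX proteins, or CCGGAA, a core bound by ETS proteins. Dusp6 held 1 ACAAT match, beginning 115 bases before the start, and the other 3 windows held neither motif. ACAAT occurs in 27.7% and CCGGAA in 12% of 32851 such windows, no match overlapped another, and the lack of a match says only that these letters are not in this window.

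The estimated counts summed to 29909111 to 46150400 per library. Levels are given as CPM, counts scaled to library size by the trimmed mean of M values, and differences as log2 fold changes ± standard error (SE) from edgeR's quasi-likelihood test, with calls at 0.05 after Benjamini-Hochberg adjustment over all genes tested. Some libraries carried RNA markers of tissue next to the gonad. Summed over 9 mesonephros markers, XY WT replicate 3 had 283.5 CPM against 29.3 and 37.8 in the other XY WT libraries, with none of the 9 at 0. XX 3bp-del homozygote replicate 4 had 160.8 CPM against 40.3 to 45.2 in its group. XY 3bp-del homozygote replicate 1 had 206.8 CPM, of which 182.2 were Cdh1, an epithelial cadherin, and 0.028 were Cdh16, a kidney cadherin. Summed over 7 adrenal markers, XX WT replicate 1 had 182.4 CPM against 5.10 and 4.26, and XY 3bp-del heterozygote replicate 1 had 68.1 CPM against 7.72 and 10.2. That sum reached 49.0 CPM in XX 1bp-ins heterozygotes. In XX 1bp-ins homozygotes it ran from 3.93 to 41.1 CPM with a median of 38.8 CPM. Of these markers, Dbh was 19.3 CPM in XX 1bp-ins heterozygote replicate 2. Dbh was 15.5, 16.3 and 15.8 CPM in XX 1bp-ins homozygote replicates 1, 3 and 4, against 0.029 and 0.026 CPM in replicates 2 and 5. The Sox9 level was 7.84 to 14.4 CPM in the 9 XX WT and heterozygous libraries. It was 136 to 266 CPM in the 15 XX homozygous libraries and 84.0 to 323 CPM in the 22 XY libraries. This sets the XX WT and heterozygous libraries apart from the others. It cannot check the labels of XX homozygous against XY libraries, or of XX WT against XX heterozygous libraries, since their levels overlapped.

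Fgf9 (chr14:58070671-58112854 on GRCm38.p6) was low in XX WT and XX heterozygous gonads and about as high in XX homozygous gonads as in XY gonads. Its level was 2.07, 2.68 and 2.52 CPM in the 3 XX WT libraries and 23.8, 26.7 and 16.8 CPM in the 3 XY WT libraries. The lowest XY WT value was replicate 3, the library with mesonephros markers, and the groups did not overlap. Fgf9 was 9.21-fold higher in XY WT (log2 difference 3.20 ± 0.22, edgeR adjusted p = 0.000479). Without XY WT replicate 3 the log2 difference was 3.38.

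Fgf9 rose in XX gonads homozygous for each of the 3 mutations. The level was 23.1, 21.7, 26.7, 19.4 and 15.5 CPM in XX 1bp-ins homozygotes. It was 24.5, 22.3, 21.3, 19.6 and 22.4 CPM in XX 3bp-del homozygotes, and 20.7, 24.4, 19.6, 27.0 and 23.2 CPM in XX 3bp-12bp-del homozygotes. Every one of these 15 values lay above every XX WT and XX heterozygous value, and the groups of homozygotes overlapped one another. Against XX WT the log2 difference was 3.16 ± 0.20 for 1bp-ins (edgeR adjusted p = 0.000265), 3.18 ± 0.12 for 3bp-del (adjusted p = 3.86e-07) and 3.27 ± 0.14 for 3bp-12bp-del (adjusted p = 4.39e-06). These comparisons share the 3 XX WT libraries. Against heterozygotes of the same mutation, which share no control with those, it was 2.92 ± 0.28 for 1bp-ins (adjusted p = 0.00153) and 2.82 ± 0.12 for 3bp-del (adjusted p = 5.22e-07).

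One mutated copy did not shift Fgf9 beyond the spread. XX 1bp-ins heterozygotes had 2.87, 3.91 and 1.76 CPM, and XX 3bp-del heterozygotes had 3.14, 2.68 and 3.71 CPM. Both sets overlapped XX WT, with log2 differences of 0.23 ± 0.29 and 0.37 ± 0.21 that were not called. In XY gonads Fgf9 was called against XY WT in none of the 5 mutant groups. Its log2 differences ran from -0.06 ± 0.19 in 3bp-del homozygotes to 0.26 ± 0.17 in 1bp-ins heterozygotes. These comparisons called at most 0.0130% of all genes. Sox9 was not called in them either, at up to 0.95 ± 0.27 in 3bp-12bp-del homozygotes, so the lack of a call says little. The level over the 22 XY libraries ran from 16.3 to 31.4 CPM with a median of 24.6 CPM. Between XX and XY homozygotes of the same mutation the Fgf9 log2 difference was -0.27 ± 0.14 for 1bp-ins, 0.05 ± 0.13 for 3bp-del and -0.17 ± 0.11 for 3bp-12bp-del, none of them called.

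**Figure D1:**
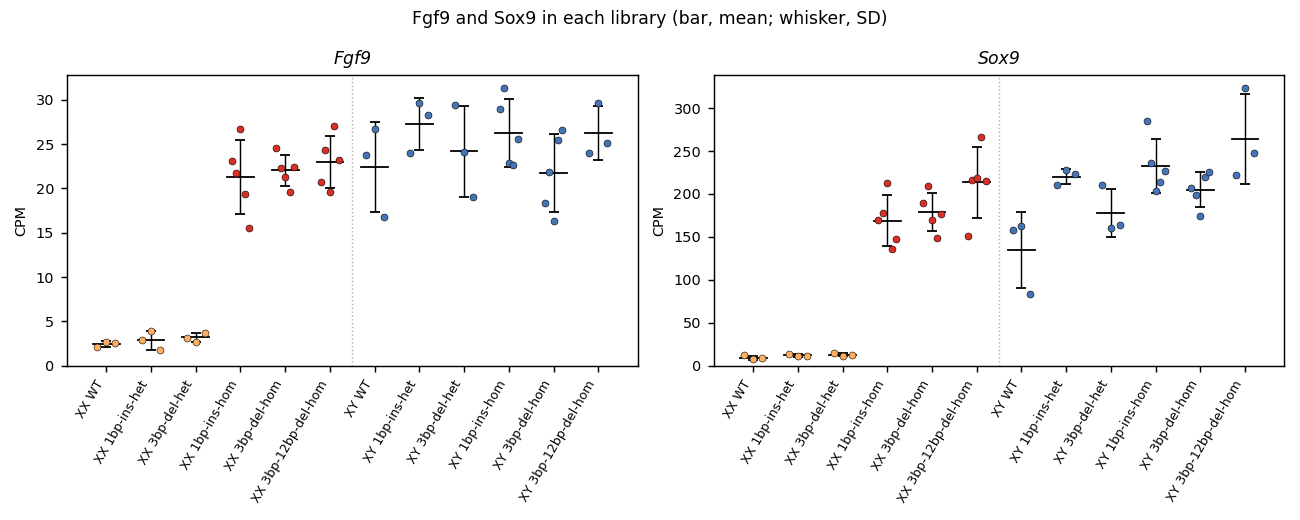
Level (CPM, linear axis from 0) of Fgf9 and Sox9 in each of the 46 libraries, grouped by sex and genotype; points are libraries, bars the group mean and whiskers the SD. XX homozygous libraries sit at 15.5 to 27.0 CPM of Fgf9 against at most 3.91 CPM in XX WT and heterozygous libraries, and overlap the XY libraries.

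Markers of the supporting cells moved along the same groups. The sum over 15 Sertoli markers, Sox9 included, was 50.7 to 69.0 CPM in XX WT, with at most 1 of the 15 at 0, 420.9 to 2212 CPM in XX homozygotes and 743 to 2912 CPM in XY libraries. In XX homozygotes 13, 13 and 12 of the 15 rose against XX WT for 1bp-ins, then 3bp-del, then 3bp-12bp-del. The sum over 12 pregranulosa markers, genes of the ovarian supporting cells, was 896 to 1205 CPM in XX WT, 204 to 637 CPM in XX homozygotes and 139.9 to 309 CPM in XY libraries, with none at 0. The part of these cells in the levels of the FGF genes was not tested.

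Among the receptors, Fgfr2 (chr7:130162451-130266808) fell in XX homozygotes, but not to the XY level. It encodes the receptor through which FGF9 acts on supporting cells. XX WT libraries had 158, 189 and 217 CPM and XY WT libraries 36.5, 40.7 and 80.9 CPM. The XY value of 80.9 CPM was again replicate 3, and the groups did not overlap. Fgfr2 was 3.58-fold lower in XY WT (log2 difference -1.84 ± 0.31, edgeR adjusted p = 0.0134), and -2.28 on the log2 scale without replicate 3. The call was lost when XX WT replicate 2, XX WT replicate 3 or XY WT replicate 2 was left out, with a log2 difference of -1.63 or below throughout.

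XX 1bp-ins homozygotes had 92.0, 89.5, 69.6, 90.4 and 66.0 CPM of Fgfr2, and XX 3bp-del homozygotes 72.9, 80.9, 86.0, 82.0 and 95.9 CPM. XX 3bp-12bp-del homozygotes had 119, 100.3, 99.2, 59.1 and 74.1 CPM. All 15 values were below every XX WT and heterozygous value, which ran from 158 to 217 CPM, and above every XY value other than XY WT replicate 3, those running from 33.8 to 54.0 CPM. Against XX WT the log2 difference was -1.18 ± 0.14 for 1bp-ins (edgeR adjusted p = 0.0011), -1.17 ± 0.11 for 3bp-del (adjusted p = 4.55e-05) and -1.04 ± 0.22 for 3bp-12bp-del (adjusted p = 0.0125, lost without XX WT replicate 3 at an adjusted p of 0.0523). Against XY homozygotes of the same mutation Fgfr2 stayed higher in XX, by 1.10 ± 0.10 for 1bp-ins (adjusted p = 0.000237), 1.08 ± 0.13 for 3bp-del (adjusted p = 8.39e-05) and 1.07 ± 0.22 for 3bp-12bp-del (adjusted p = 0.0237). The last of these lost its call when XX replicate 2 or any of the 3 XY libraries was left out.

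Fgfr3 (chr5:33721724-33737068), which encodes a receptor best known for restraining bone growth, followed the same order at a lower level. XX WT had 12.53, 11.8 and 9.95 CPM and XY WT 4.05, 3.94 and 6.73 CPM, with no overlap. The log2 difference was -1.23 ± 0.24 (edgeR adjusted p = 0.0218), a call that leaving out any of XX WT replicates 1 to 3 or XY WT replicates 1 and 2 ended, as did limma on TPM (adjusted p = 0.111). Fgfr3 fell in XX 3bp-del homozygotes by 0.60 ± 0.12 (adjusted p = 0.00203) and in XX 3bp-12bp-del homozygotes by 0.74 ± 0.15 (adjusted p = 0.00619), and both calls were lost in 1 fit over all 12 groups (adjusted p = 0.109 and 0.0585). In XX 1bp-ins homozygotes, at 5.96 to 12.4 CPM, the log2 difference was -0.46 ± 0.23 (adjusted p = 0.15). That difference was called without homozygote replicate 5 (-0.66, edgeR adjusted p = 0.0109) and with the replicate number as a block (-0.59, adjusted p = 0.0128). XY 3bp-del homozygote replicate 1, the library with high Cdh1, had 13.4 CPM of Fgfr3 against 3.48 to 5.76 CPM in its group. With that library the XX against XY difference for 3bp-del was 0.33 ± 0.35, and without it 0.84 (adjusted p = 0.00143). For 1bp-ins that difference was 0.98 ± 0.21 (adjusted p = 0.0151), and for 3bp-12bp-del 0.67 ± 0.16 (adjusted p = 0.0252). The 3bp-12bp-del call was lost in 6 of 15 alternatives: without XX replicate 2 or any of the 3 XY libraries, in the 12-group fit (adjusted p = 0.163) and by limma on TPM (0.29, adjusted p = 0.304).

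Fgfr1 (chr8:25518759-25575718) and Fgfr4 (chr13:55152818-55168759) were not called between the wild types by edgeR with all libraries. Fgfr1, a receptor expressed in many mesenchymal tissues, had 129, 143 and 131 CPM in XX WT and 139.6, 135 and 199.9 CPM in XY WT, the highest again in replicate 3. Its log2 difference was 0.23 ± 0.16, and edgeR with all libraries called it in none of the comparisons. Alternatives called Fgfr1 in XX homozygotes against XX WT, in both directions. With the length trend removed it was called higher, at 0.17 for 3bp-del and 0.22 for 3bp-12bp-del. The 3bp-12bp-del difference was also called, at 0.21, without homozygote replicate 3. By limma on TPM it was called lower, at -0.32 for 1bp-ins and -0.23 for 3bp-del. Fgfr4 had 2.85, 2.36 and 1.96 CPM in XX WT and 4.69, 3.64 and 6.13 CPM in XY WT, groups that did not overlap, with a log2 difference of 1.00 ± 0.27 (edgeR adjusted p = 0.0631). That Fgfr4 difference was called without XY WT replicate 3 (0.79, adjusted p = 0.0302) and by DESeq2 (1.02, DESeq2 adjusted p = 0.00927). In 1 fit over all 12 groups it was called at 1.03 (edgeR adjusted p = 0.00507). With the length trend removed it was called at 1.02 (adjusted p = 0.0478). Leaving out XX WT replicate 1 and XY WT replicate 3 together gave a call at 0.95 (adjusted p = 0.00988). XY heterozygotes were called higher in Fgfr4 than XX heterozygotes, by 0.99 ± 0.20 for 1bp-ins and 0.86 ± 0.25 for 3bp-del (edgeR adjusted p = 0.0326). The 3bp-del call was lost in 6 of 14 alternatives. It ended without XX replicate 1 or 3 or any of the 3 XY libraries, among them XY replicate 1, the library with adrenal markers (0.83, adjusted p = 0.0777). In XX 3bp-12bp-del homozygotes Fgfr4 was called against XX WT at 0.71 ± 0.23 (adjusted p = 0.0473), with overlapping groups and a call that ended in 10 of 16 alternatives, among them the leaving out of replicates 1, 2, 4 and 5 of the homozygotes or replicates 2 and 3 of XX WT.

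Per transcript length, in the deposited TPM values, the order of the receptors differed between the kinds of gonad. In the 9 XX WT and heterozygous libraries the median level was 95.9 TPM for Fgfr2, 51.56 for Fgfr1, 4.23 for Fgfr3 and 1.13 for Fgfr4. Fgfr2 ran from 84.7 to 118.8 TPM there and Fgfr1 from 30.4 to 58.2 TPM, so the 2 ranges did not overlap. In the 15 XX homozygous libraries the medians of Fgfr2 and Fgfr1 were 46.1 and 45.77 TPM, with ranges of 31.4 to 69.3 and 38.3 to 63.0 TPM that overlapped. In the 22 XY libraries Fgfr1 led with a median of 48.66 TPM against 21.14 TPM for Fgfr2, and Fgfr4 (2.06 TPM) and Fgfr3 (1.52 TPM) overlapped. The level of Fgf9 on this scale was 1.96, 16.4 and 17.965 TPM in the same 3 sets.

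**Figure D2:**
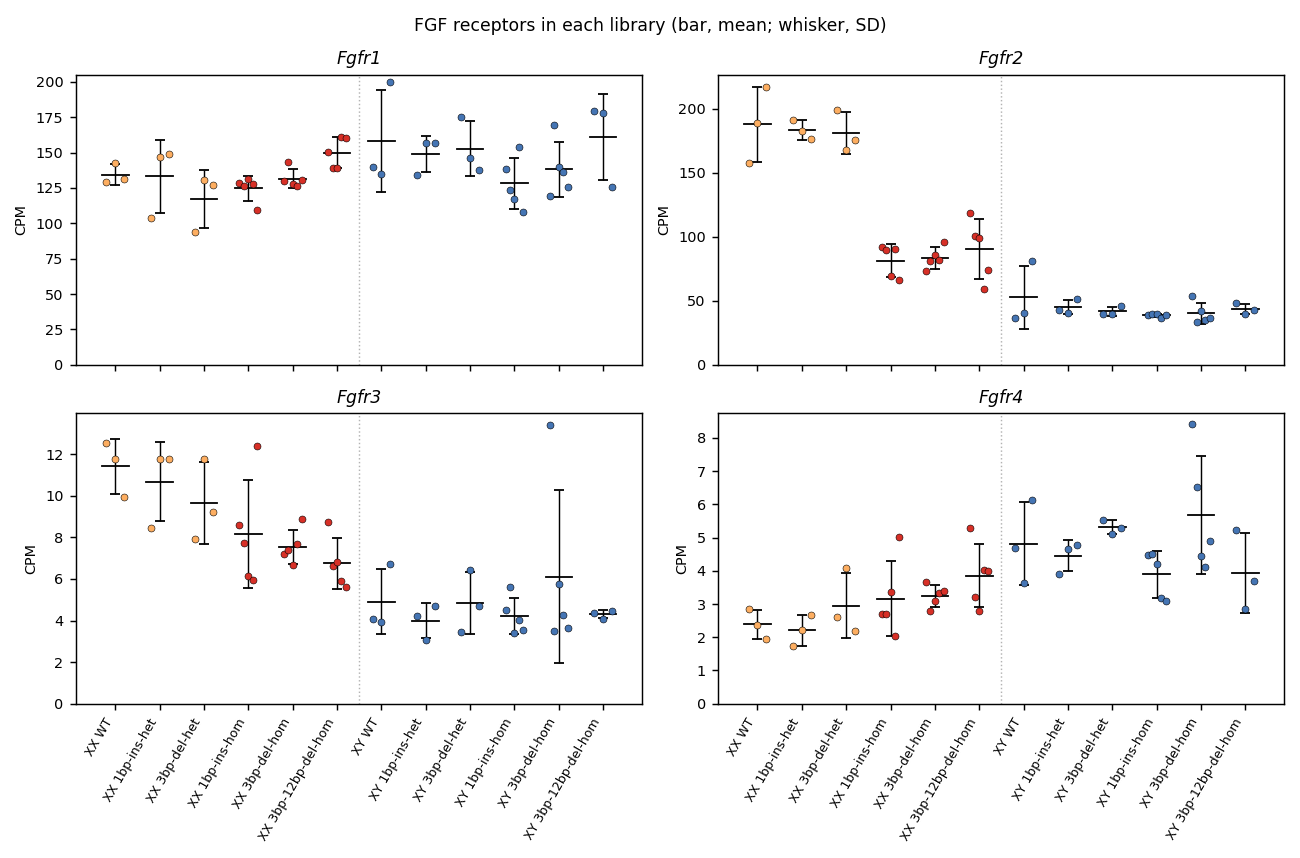
Level (CPM, linear axes from 0) of the 4 receptor genes in each library; points are libraries, bars the group mean and whiskers the SD. Fgfr2 lies at 59.1 to 119 CPM in XX homozygotes, between XX WT and heterozygotes (158 to 217 CPM) and XY mutants (33.8 to 54.0 CPM). The Fgfr1 ranges of these sets of libraries overlap.

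Of the feedback inhibitors, Spry4 and Dusp6 rose in all 3 XX homozygotes and were higher in XY than in XX WT. Dusp6 (chr10:99263231-99267489) encodes the phosphatase that inactivates ERK. Its level was 55.8, 48.9 and 43.6 CPM in XX WT and 122, 118 and 98.4 CPM in XY WT. XX 1bp-ins homozygotes had 87.6, 91.1, 103, 82.8 and 97.4 CPM, XX 3bp-del homozygotes 95.4, 97.4, 90.6, 92.96 and 75.5 CPM, and XX 3bp-12bp-del homozygotes 82.2, 96.1, 91.9, 109.6 and 107 CPM. All 15 exceeded every XX WT and heterozygous value, the highest of which was 55.8 CPM. The log2 difference against XX WT was 1.18 ± 0.13 in XY WT (edgeR adjusted p = 0.00267), 0.92 ± 0.10 for 1bp-ins (adjusted p = 0.000778), 0.87 ± 0.10 for 3bp-del (adjusted p = 0.000126) and 1.00 ± 0.11 for 3bp-12bp-del (adjusted p = 0.000409). Dusp6 stayed below the XY level of the same mutation, by -0.47 ± 0.07 for 1bp-ins (adjusted p = 0.00332) and -0.33 ± 0.07 for 3bp-del (adjusted p = 0.00298), while -0.29 ± 0.09 for 3bp-12bp-del was not called (adjusted p = 0.0682).

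Spry4 (chr18:38586247-38601347), a Sprouty inhibitor of receptor signalling to RAS-ERK, had 18.3, 18.1 and 16.0 CPM in XX WT and 56.0, 44.4 and 36.9 CPM in XY WT. The XX homozygotes ran from 33.2 to 60.4 CPM, all above the XX WT and heterozygous libraries and overlapping the XY libraries. The log2 difference from XX WT was 1.38 ± 0.17 in XY WT (edgeR adjusted p = 0.00328), 1.26 ± 0.15 for 1bp-ins (adjusted p = 0.000998), 1.19 ± 0.09 for 3bp-del (adjusted p = 1.69e-05) and 1.60 ± 0.10 for 3bp-12bp-del (adjusted p = 3.53e-05). Fgf9, Spry4 and Dusp6 kept their calls between the wild types and in the 3 XX homozygotes against XX WT under every alternative run.

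Spry2 (chr14:105891947-105896819), another Sprouty, rose less. It had 21.8, 22.6 and 22.6 CPM in XX WT, 25.0 to 43.7 CPM in XX homozygotes and 34.6, 37.8 and 31.6 CPM in XY WT. Its XX homozygous libraries lay above all XX WT and heterozygous libraries, which reached 23.5 CPM. The log2 difference from XX WT was 0.63 ± 0.10 in XY WT (edgeR adjusted p = 0.00826, lost without XX WT replicate 2 at an adjusted p of 0.0555), 0.57 ± 0.13 for 1bp-ins (adjusted p = 0.0103), 0.65 ± 0.10 for 3bp-del (adjusted p = 0.000585) and 0.79 ± 0.09 for 3bp-12bp-del (adjusted p = 0.000484). The 1bp-ins call was lost by limma on TPM (0.31, adjusted p = 0.0759). Against 1bp-ins heterozygotes the homozygotes were higher in Spry2 by 0.53, a call lost in 6 of 15 alternatives: without any of the 3 heterozygotes, without homozygote replicate 2 or 3, and by limma, at adjusted p up to 0.105.

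Spry1 (chr3:37639947-37644599), the Sprouty best known for limiting growth factor signalling in the developing kidney, differed between the sexes. In XX homozygotes edgeR with all libraries did not call it against XX WT. XX WT had 24.8, 23.8 and 26.3 CPM and XY WT 44.3, 44.4 and 74.8 CPM, the highest in replicate 3. The log2 difference was 1.12 ± 0.21 (edgeR adjusted p = 0.018), and 0.83 without that library; leaving out any 1 of the XX WT libraries ended the call, as did limma on TPM (adjusted p = 0.0754). XX homozygotes had 23.9 to 49.6 CPM, with log2 differences from XX WT of 0.37 ± 0.14 (adjusted p = 0.0729), 0.37 ± 0.22 (adjusted p = 0.199) and 0.32 ± 0.12 (adjusted p = 0.0725) for 1bp-ins, then 3bp-del, then 3bp-12bp-del. Some alternatives called these differences. For 1bp-ins they were DESeq2 (0.36) and leaving out homozygote replicate 1 (0.44). For 3bp-del they were the replicate number as a block (0.21) and leaving out homozygote replicate 4 (0.20). The 3bp-12bp-del difference was called without homozygote replicate 3 (0.36). Against XY homozygotes Spry1 was lower in XX by -0.64 ± 0.12 for 1bp-ins (adjusted p = 0.0103) and -0.56 ± 0.12 for 3bp-12bp-del (adjusted p = 0.0208), the latter lost without XX replicate 2 or XY replicate 2 or 3. For 3bp-del it was -0.36 ± 0.17 (adjusted p = 0.124), and -0.58 (adjusted p = 0.000307) without XX replicate 4, the library with mesonephros markers, where Spry1 was 49.6 CPM. In XX 3bp-del heterozygotes, at 15.9, 18.1 and 17.8 CPM, Spry1 fell below XX WT by 0.56 ± 0.08 (adjusted p = 0.0098), a call lost without XX WT replicate 2 and in 1 fit over all 12 groups.

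Etv5 (chr16:22381313-22439570), an ETS transcription factor induced by ERK, rose in all 3 XX homozygotes. XX WT had 88.7, 77.2 and 57.6 CPM and XY WT 154, 166 and 109 CPM. XX 1bp-ins homozygotes had 198, 189.8, 202, 144 and 149 CPM, and the other XX homozygotes ran from 166 to 202 CPM. All 15 lay above the XX WT and heterozygous libraries, whose highest value was 115 CPM, and they overlapped the XY libraries. The log2 difference from XX WT was 0.93 ± 0.22 in XY WT (edgeR adjusted p = 0.0373), 1.26 ± 0.18 for 1bp-ins (adjusted p = 0.00193), 1.26 ± 0.13 for 3bp-del (adjusted p = 0.000118) and 1.37 ± 0.13 for 3bp-12bp-del (adjusted p = 0.000232). The XY WT call was lost without any 1 of the XX WT libraries or XY WT replicate 1 or 2, and the log2 difference without XY WT replicate 3 was 1.10 (adjusted p = 0.00547). By edgeR with all libraries, Spry2, Spry4 and Etv5 were not called between XX and XY homozygotes of the same mutation. Without XX 3bp-del homozygote replicate 4, a library with mesonephros markers, Spry2 was called higher in XX by 0.27 (adjusted p = 0.0324). Spry2 was also called at 0.27 without XX 3bp-del homozygote replicate 5 (adjusted p = 0.0494).

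**Figure D3:**
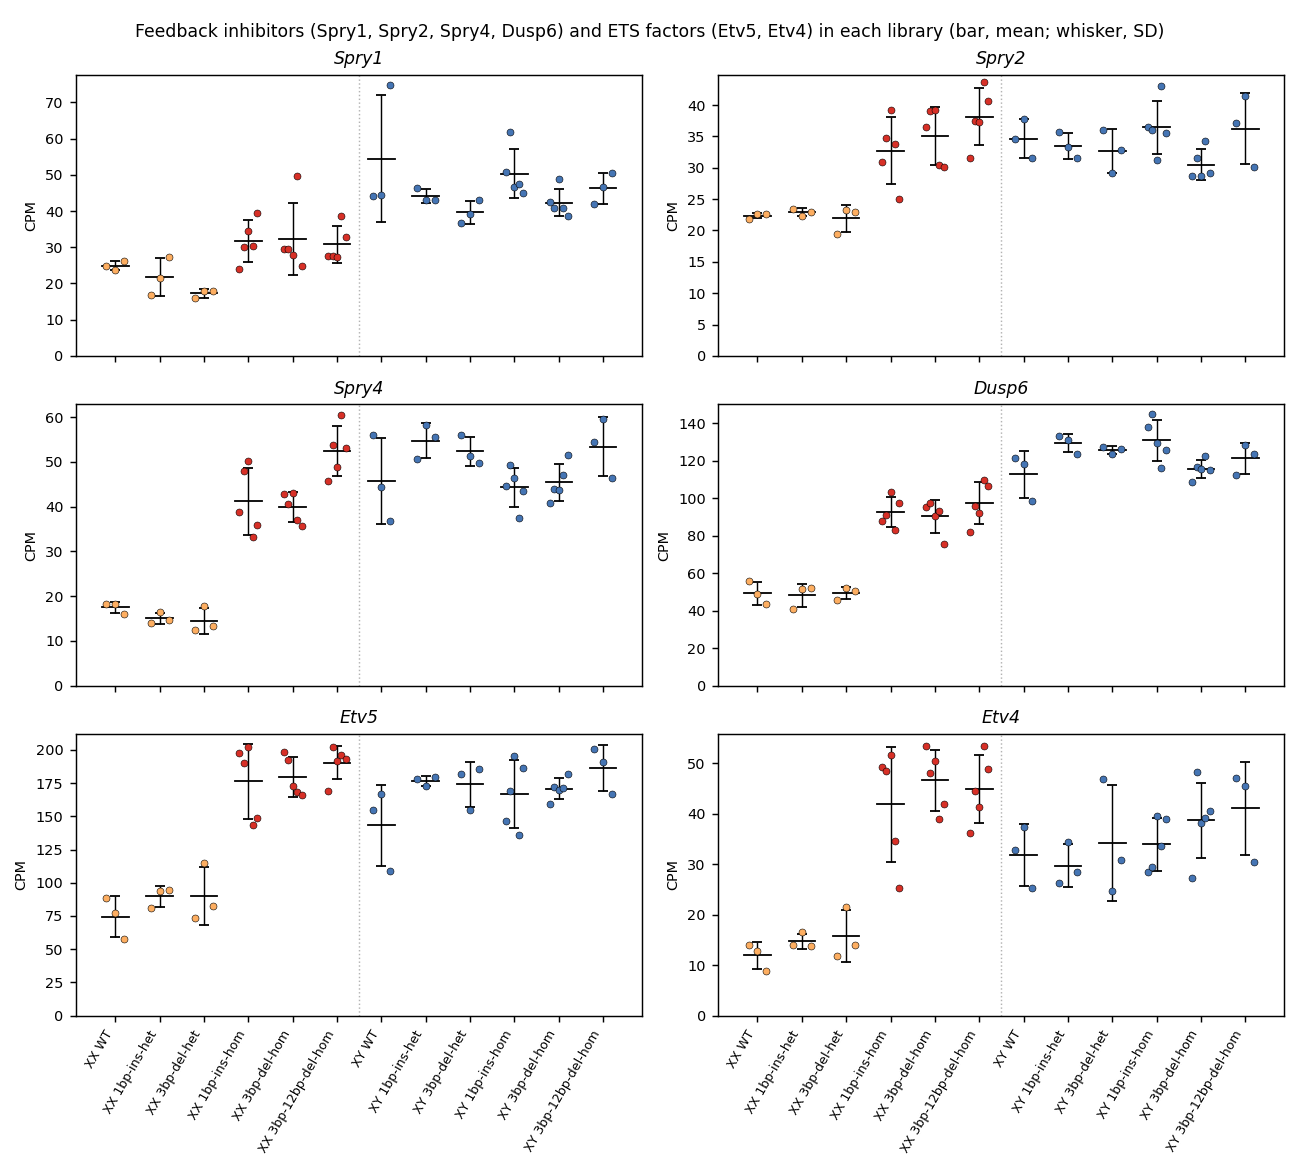
Level (CPM, linear axes from 0) of Spry1, Spry2, Spry4, Dusp6, Etv5 and the related ETS gene Etv4 in each library; points are libraries, bars the group mean and whiskers the SD. In Dusp6, Spry2, Spry4, Etv5 and Etv4 all 15 XX homozygous libraries lie above the XX WT and heterozygous libraries, and in Spry1 they overlap.

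Between the wild types 8 of the 10 genes were called, 6 higher in XY and 2 lower, where 11.0% of all genes tested were called, 5.10% higher and 5.94% lower. The median log2 difference of the 10 was 0.97 against -0.0023 over all genes tested. Without XY WT replicate 3, 9 were called, Fgfr4 being the added one. Leaving out XX WT replicate 1, 2 or 3 left 5, 3 and 4 calls, and leaving out XY WT replicate 2 left 5. Counts with a library left out, here and below, stand without the share of all genes called in that setting. They do not show whether a change is particular to these genes.

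In XX homozygotes against XX WT, 6 genes were called for 1bp-ins (5 higher, 1 lower), 7 for 3bp-del (5 higher, 2 lower) and 8 for 3bp-12bp-del (6 higher, 2 lower). Over all genes, 32.3% were called for 1bp-ins (17.2% higher, 15.1% lower), 44.8% for 3bp-del (21.6% higher, 23.1% lower) and 25.6% for 3bp-12bp-del (14.6% higher, 11.0% lower). The median log2 difference of the 10 genes was 0.50, 0.54 and 0.75. Against heterozygotes of the same mutation, 6 were called for 1bp-ins (5 higher, 1 lower) where 17.3% of all genes were called (8.49% higher, 8.76% lower), and 7 for 3bp-del (6 higher, 1 lower) where 27.1% were called (14.0% higher, 13.1% lower). Fgf9, Spry2, Spry4, Dusp6 and Etv5 were the genes called higher, and Fgfr2 the gene called lower, in all 5 of these comparisons with all libraries. The sixth gene called higher against 3bp-del heterozygotes was Spry1, lost without heterozygote replicate 1 or 3.

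Few of the 10 genes passed the test in heterozygous XX gonads. In XX 1bp-ins heterozygotes edgeR called 0 of the 10 genes and 0% of all genes, with 0 of the 10 at an unadjusted p under 0.05 and 0 by DESeq2. In XX 3bp-del heterozygotes Spry1 was the 1 gene called, where 10.9% of all genes were called. The number was 0 without XX WT replicate 2 and 2 without heterozygote replicate 2.

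None of the 10 genes passed the test in XY mutants. EdgeR called 0 of the 10 genes against XY WT in each of the 5 XY mutant groups, and DESeq2 and limma also called 0. The share of all genes called was 0% in XY 1bp-ins homozygotes, 3bp-del homozygotes, 1bp-ins heterozygotes and 3bp-del heterozygotes, and 0.0130% in XY 3bp-12bp-del homozygotes. The unadjusted p was under 0.05 for 1 of the 10 in 1bp-ins homozygotes (Dusp6, 0.21 ± 0.09), where 14.2% of all genes were under it, and for 1 in 3bp-del homozygotes (Spry2, -0.20 ± 0.09), where 10.9% were. It was for 0 of the 10 in 3bp-12bp-del homozygotes, 1bp-ins heterozygotes and 3bp-del heterozygotes, against 6.84%, 6.15% and 4.85% of all genes.

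The difference between the effect in XX and in XY gonads was tested directly as an interaction. For Fgf9 the effect on the log2 scale was greater in XX by 2.93 ± 0.26 for 1bp-ins (edgeR adjusted p = 0.000102), 3.26 ± 0.25 for 3bp-del (adjusted p = 1.44e-05) and 3.06 ± 0.23 for 3bp-12bp-del (adjusted p = 7.95e-05). For Spry4 it was greater by 1.31 ± 0.21 (adjusted p = 0.00483), 1.23 ± 0.16 (adjusted p = 0.00109) and 1.41 ± 0.19 (adjusted p = 0.0104), and for Dusp6 by 0.72 ± 0.14 (adjusted p = 0.0162), 0.86 ± 0.13 (adjusted p = 0.00241) and 0.92 ± 0.16 (adjusted p = 0.027). Spry2, by 0.87 ± 0.14 (adjusted p = 0.00323), and Etv5, by 1.04 ± 0.19 (adjusted p = 0.00669), were called for 3bp-del. These 3, 5 and 3 calls compare with 1.04%, 3.83% and 0.597% of all genes. By DESeq2 Etv5 was also called for 1bp-ins (1.05, DESeq2 adjusted p = 0.00301) and for 3bp-12bp-del (1.00, adjusted p = 0.000956). Spry2 was also called by DESeq2 for 3bp-12bp-del (0.74, adjusted p = 0.00474). The Dusp6 call for 3bp-12bp-del ended in 9 of 22 alternatives and that for 1bp-ins when XX WT replicate 2 or 3 or XY WT replicate 1 or 2 was left out. Without XY WT replicate 3 the interaction called 5 genes for 1bp-ins and 7 for 3bp-12bp-del. Fgfr2, not called with all libraries, was then called for all 3 mutations, its log2 effect being lower in XX. The values were -1.18 for 1bp-ins (edgeR adjusted p = 0.0019), -1.21 for 3bp-del (adjusted p = 0.00327) and -1.19 for 3bp-12bp-del (adjusted p = 0.0245).

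Set against XY WT, edgeR called few of the 10 genes in the XX homozygotes, and more of them had an unadjusted p under 0.05. EdgeR called 0 for 1bp-ins, where 0.126% of all genes were called, 0 for 3bp-del, where 17.6% were called, and 1 for 3bp-12bp-del, where 5.60% were called. At an unadjusted p under 0.05 the numbers were 5, 6 and 3, against 15.9%, 33.7% and 20.6% of all genes. DESeq2 called 1, 5 and 2, against 4.01%, 24.8% and 11.4% of all genes. The 1 call was Spry1 at -0.83 ± 0.20 (adjusted p = 0.0445), lost in 9 of 16 alternatives, among them the leaving out of homozygote replicate 1, 2, 3 or 5 or XY WT replicate 1 or 2. Without XY WT replicate 3, edgeR called 0, 3 and 4, and 1 was called for 3bp-del without XX replicate 4 or XY WT replicate 2. The 3 for 3bp-del were Fgfr2 (1.13), Fgfr3 (0.93) and Dusp6 (-0.39), and the 4 for 3bp-12bp-del were Fgfr2 (1.24), Fgfr3 (0.77), Spry1 (-0.51) and Etv5 (0.26). For Fgf9 the log2 difference from XY WT with all libraries was -0.07 ± 0.19, -0.01 ± 0.14 and 0.03 ± 0.15.

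Because XY WT replicate 3 stood apart, XX and XY homozygotes of the same mutation, and XY and XX heterozygotes, were also compared, a choice made after seeing the data. Between homozygotes 4 genes were called for 1bp-ins, 3 for 3bp-del and 3 for 3bp-12bp-del, where 9.94%, 31.8% and 10.4% of all genes were called. Fgfr2 was called in all 3 and Fgf9 in none. Fgfr4 was the third call for 3bp-del, lower in XX by -0.78 ± 0.20 (edgeR adjusted p = 0.0102), and 5 were called without XX replicate 4. For 3bp-12bp-del the number was 0 without XX replicate 2, XY replicate 2 or XY replicate 3, and 1 without XY replicate 1. Markers differed between these groups too: 2, 13 and 6 of the 15 Sertoli markers were lower, and 11, 12 and 12 of the 12 pregranulosa markers higher, in XX homozygotes.

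Between heterozygotes of the 2 sexes, 9 of the 10 genes were called for each mutation, 7 higher in XY and 2 lower, where 39.2% of all genes were called for 1bp-ins and 29.6% for 3bp-del. Fgf9 was higher in XY by 3.25 ± 0.24 for 1bp-ins (edgeR adjusted p = 2.33e-05) and 2.94 ± 0.19 for 3bp-del (adjusted p = 1.32e-05). Fgfr2 was lower by -2.03 ± 0.09 and -2.10 ± 0.09, and Spry4 higher by 1.85 ± 0.09 and 1.86 ± 0.14. Fgfr1 was the gene not called in either. For 3bp-del the Fgfr4 call was lost as given above, and the Fgfr3 call (-0.98) without XX replicate 2 or XY replicate 3. These comparisons hold none of the WT libraries.

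**Figure D4:**
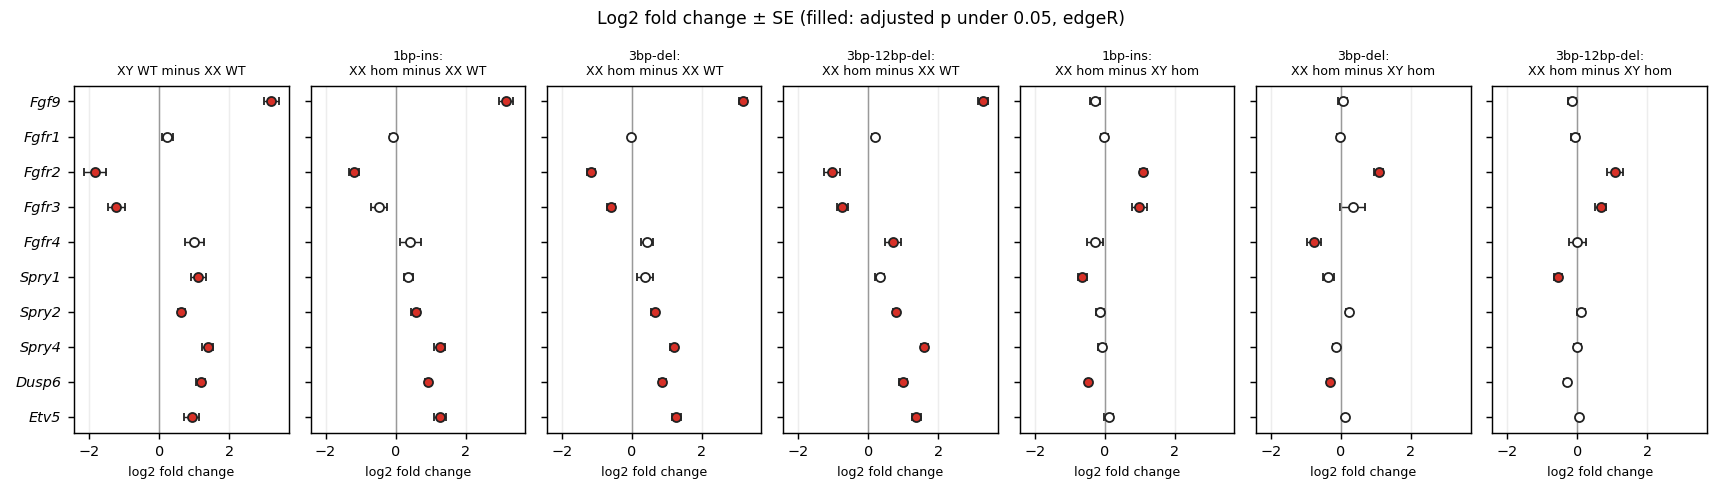
Log2 fold change of each of the 10 genes in 7 comparisons, on 1 shared axis; points are estimates and whiskers the SE, and filled points passed the test. Fgf9 lies near 3 in XY WT and in the 3 XX homozygotes against XX WT, where Fgfr2 lies below 0.

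Other genes of the pathway were read from 4 lists of 89 genes in all, 88 of them in the table. Each list's counts stand beside the shares of all genes called: 5.10% higher and 5.94% lower between the wild types, and in the XX homozygotes 17.2% and 15.1% for 1bp-ins, 21.6% and 23.1% for 3bp-del and 14.6% and 11.0% for 3bp-12bp-del. Of 21 other FGF ligand genes, 10 were tested between the wild types, with 5 higher and 1 lower in XY. In XX homozygotes 3 rose and 1 fell of 10 tested for 1bp-ins, 1 rose and 1 fell of 9 for 3bp-del, and 4 rose and 1 fell of 9 for 3bp-12bp-del. The list's median log2 difference was 1.13 between the wild types and 0.43, 0.20 and 0.17 in the homozygotes.

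Fgf13, an intracellular FGF-like protein that is not secreted, was higher in XY WT by 2.08 ± 0.30 and in the XX homozygotes by 1.46 ± 0.37, 0.87 ± 0.14 and 1.01 ± 0.26. Fgf10, a mesenchymal ligand, was higher in XY WT by 1.46 ± 0.25 but by 0.35 ± 0.18 and 0.17 ± 0.15 in 1bp-ins and 3bp-del homozygotes, not called, and 0.73 ± 0.18 in 3bp-12bp-del homozygotes, called. Fgf18 was higher in XY WT by 1.50 ± 0.23 and not called in any XX homozygote (0.54 ± 0.46, 0.16 ± 0.21 and 0.17 ± 0.20). Fgf16, a ligand of the same subfamily as Fgf9, had a mean of 1.12 TPM in XY WT and 0.01 TPM in XX WT, where 2 of the 3 libraries were at 0, and 0.69, 0.21 and 0.42 TPM in the XX homozygotes. Fgf11, another intracellular member, fell in all 4 comparisons, by 0.92 ± 0.18 in XY WT and by 0.79 ± 0.17, 0.47 ± 0.13 and 0.87 ± 0.12 in the homozygotes.

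Among 24 co-receptor and extracellular regulator genes, 22 were tested and 5 were higher and 3 lower in XY WT. In XX homozygotes 3 rose and 7 fell for 1bp-ins, 4 rose and 9 fell for 3bp-del, and 4 rose and 6 fell for 3bp-12bp-del. Sulf1, which trims heparan sulfate at the cell surface, fell in all 4, by 1.97 ± 0.33 in XY WT and by 1.39 ± 0.27, 1.19 ± 0.14 and 0.92 ± 0.20 in the homozygotes. Sdc4, a heparan sulfate proteoglycan, rose by 0.84 ± 0.18, 0.90 ± 0.13, 0.74 ± 0.09 and 0.72 ± 0.08 in the same order. Fgfrl1, a receptor-like protein without a kinase domain, rose by 0.77 ± 0.10, 0.55 ± 0.18, 0.34 ± 0.08 and 0.57 ± 0.10, the 3bp-del value turning to -0.045 by limma on TPM. Flrt1, Flrt3, Gpc6 and Sdc2 fell in all 3 homozygotes and were not called between the wild types, though Gpc6 was called at -0.35 without XY WT replicate 3.

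Of 21 adaptor and RAS-ERK cascade genes all were tested. Between the wild types 0 were higher and 1 was lower in XY WT by edgeR, and the median log2 difference was -0.02. In XX homozygotes 5 rose and 6 fell for 1bp-ins, 5 rose and 10 fell for 3bp-del, and 4 rose and 2 fell for 3bp-12bp-del. The 1 gene lower in XY WT was Rps6ka3, which encodes a kinase activated by ERK, at -1.03 ± 0.08. In the homozygotes it was called at -0.65 ± 0.16 and -0.64 ± 0.07 for 1bp-ins and 3bp-del and not called at -0.27 ± 0.16 for 3bp-12bp-del (edgeR adjusted p = 0.253). The 1bp-ins call was lost without XX WT replicate 2 or 3 or with the length trend removed, and without homozygote replicate 3 the 3bp-12bp-del difference was called at -0.42. Sos1, an exchange factor that activates RAS, fell in all 3 homozygotes, by 0.44 ± 0.06, 0.55 ± 0.07 and 0.27 ± 0.07, and was -0.39 ± 0.10 between the wild types, not called (adjusted p = 0.0543) but called at -0.47 without XY WT replicate 3. With the length trend removed none of the 3 calls of Sos1 held (-0.013, -0.027 and -0.11), and the 3bp-12bp-del call was also lost without XX WT replicate 2 or 3. Rps6ka1, another kinase activated by ERK, rose in the homozygotes by 0.21 ± 0.06, 0.19 ± 0.05 and 0.25 ± 0.07, the first 2 values turning to -0.0061 and -0.037 by limma on TPM. Leaving out any 1 of the XX WT libraries ended its 1bp-ins and 3bp-12bp-del calls, as did leaving out replicate 1, 2 or 3 of the 1bp-ins and replicate 4 or 5 of the 3bp-12bp-del homozygotes. Map2k1, Map2k2 and Mapk3, the core kinases of the cascade, rose in all 3 homozygotes by at most 0.44 ± 0.07.

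Of 23 other ERK feedback and target genes, 21 were tested, with 8 higher and 1 lower in XY WT, and 6 higher and 2 lower, 11 higher and 3 lower, and 8 higher and 2 lower in the homozygotes. Cic, a transcriptional repressor that ERK signalling relieves, fell in all 3 homozygotes, by 0.48 ± 0.06, 0.52 ± 0.06 and 0.21 ± 0.06, and in XX 3bp-del heterozygotes by 0.26 ± 0.06 (edgeR adjusted p = 0.0357). Between the wild types its log2 difference was -0.23 ± 0.16, not called, and -0.44 without XY WT replicate 3, called. The 3bp-12bp-del and heterozygote calls of Cic were lost without XX WT replicate 2 or 3 and in the 12-group fit, and also without homozygote replicate 2, 3 or 4 and without heterozygote replicate 1 or 2, respectively. Etv4, the close relative of Etv5, rose from 14.1, 12.9 and 8.86 CPM in XX WT to 25.2 to 53.5 CPM in XX homozygotes, by 1.83 ± 0.28, 1.96 ± 0.16 and 1.92 ± 0.18 on the log2 scale, and was higher in XY WT by 1.40 ± 0.22. Etv1, another ETS gene of this group, was higher by 1.50 ± 0.22 in XY WT and by 1.02 ± 0.19, 0.87 ± 0.20 and 0.85 ± 0.19 in the homozygotes. Dusp4, a nuclear phosphatase of ERK, was higher by 1.30 ± 0.19, 1.00 ± 0.26, 0.49 ± 0.17 and 1.26 ± 0.15 in the same order. Spred1 and Spred2, Sprouty-related inhibitors, rose by 0.33 ± 0.06 to 0.60 ± 0.08 in the homozygotes.

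**Figure D5:**
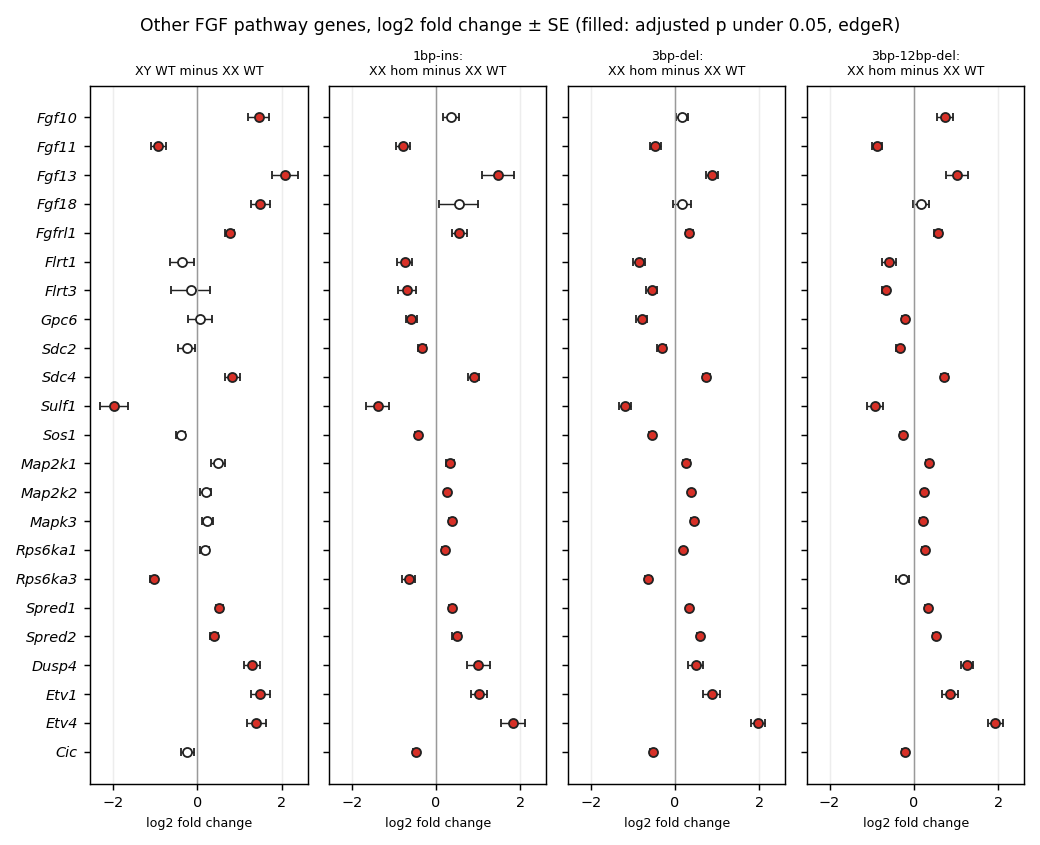
Log2 fold change of 23 other pathway genes named by the rule in 4 comparisons, on 1 shared axis; points are estimates and whiskers the SE, filled points passed the test, and Fgf16 is left out because its XX WT libraries were at or near 0. Etv4, Etv1, Dusp4, Sdc4 and Fgf13 lie above 0 and Sulf1 and Fgf11 below 0 in all 4.

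Across the 46 libraries the log2 CPM of Fgf9 was most like that of Sox9 (Pearson r = 0.982), Siglece (0.968), Mmd2 (0.956), Nr4a3 (0.952) and Spry4 (0.951) among 15661 genes. The libraries share groups and sex, so these values describe the pattern and carry no p. The lowest values were those of Dcaf6 (-0.927), Slc35g1 (-0.921) and Trim66 (-0.916). Of the other 9 genes, Dusp6 had an r with Fgf9 of 0.920, Etv5 0.901 and Spry2 0.850, while Spry1 had 0.686, Fgfr4 0.538, Fgfr1 0.272, Fgfr3 -0.685 and Fgfr2 -0.831. Etv5 was most like Etv4 (0.941), Jade1 (0.930) and Sox9 (0.925), Dusp6 most like Cyp26b1 (0.973), Smtnl2 (0.973) and Fzd9 (0.971), and Fgfr3 most like Sdr42e1 (0.888), Scpep1 (0.877) and Hsd17b2 (0.873). Over the 24 XX libraries alone the r of Fgf9 was 0.986 with Sox9 and 0.949 with Spry4.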

How the data were processed

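Poly(A) RNA of gonad pairs was isolated with a Qiagen RNeasy Plus micro kit, and libraries were made with NEB reagents, per the labels' protocols. The authors deposited a table of estimated counts per gene (8 to 8.9% of values not whole) and a table of TPM (summing to 923510 to 945851 per library), mm10 being named in the submitters' processing notes. The sources used here give no aligner, quantifier, annotation or strand setting, so reads of overlapping or antisense genes could not be set apart. Of the columns, 1 per table matched no sample and was left unused. Samples were grouped by sex and genotype from the labels.

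Estimated counts were rounded and tested with edgeR 4.0.16 in R 4.3.3 (TMM, filterByExpr, robust quasi-likelihood test), each comparison on its own groups, with Benjamini-Hochberg adjustment over all genes tested. Log2 CPM used a prior count of 2. Alternatives were DESeq2 1.42.0, limma 3.58.1 on log2(TPM + 1) of the deposited TPM, other size factors, no filter, 1 fit over all groups, the replicate number as a block, a length correction, and leaving out libraries. The code was tested on simulated data. Marker and pathway lists, the 10 genes and their rules were chosen with earlier results of these data known, and 5 comparisons were added after seeing the data. Other pathway genes are named where the wild types differed by a call of at least 1 log2 unit or all 3 XX homozygotes were called the same way (24 genes), and similar genes by the 5 highest and 3 lowest correlations with Fgf9 and the 3 highest with Fgfr3, Etv5 and Dusp6. In 71 pairs of replicates none differed by as little as sampling noise (lowest chi-square per degree of freedom 13.3).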

Additional observations from a re-analysis of the deposited data

Results flagged for a closer look

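Of 50 groups of 5 libraries tested for a library far from the others, 4 had one, and chance gives about 1 in 20. Fgfr1 was lowest in XX 1bp-ins homozygote replicate 5 (109.6 CPM against 127 CPM in the next) and highest in XX 3bp-del homozygote replicate 2 (143 CPM against 131 CPM). Fgfr3 was highest in XY 3bp-del homozygote replicate 1 (13.4 CPM against 5.76 CPM), the library with 182.2 CPM of Cdh1. Spry1 was highest in XX 3bp-del homozygote replicate 4 (49.6 CPM against 29.6 CPM), the library with 41.1 CPM of Cdh16. Whether those markers bear on Fgfr3 or Spry1 was not tested beyond leaving the libraries out.

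The effect of homozygosity differed between XX and XY gonads by edgeR's interaction test in 11 cases, all larger in XX on the log2 scale. For 1bp-ins they were Fgf9 (2.93), Spry4 (1.31) and Dusp6 (0.72). For 3bp-del they were Fgf9 (3.26), Spry2 (0.87), Spry4 (1.23), Dusp6 (0.86) and Etv5 (1.04). For 3bp-12bp-del they were Fgf9 (3.06), Spry4 (1.41) and Dusp6 (0.92). Etv5 was called by DESeq2 for 1bp-ins (1.05) and 3bp-12bp-del (1.00) too, and Spry2 for 3bp-12bp-del (0.74). Without XY WT replicate 3, edgeR also called Fgfr2, at -1.18 for 1bp-ins, -1.21 for 3bp-del and -1.19 for 3bp-12bp-del.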

How the results depend on the processing

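Of 83 calls of the 10 genes, 62 held under every alternative run and 21 were lost under one or more. The number of genes called changed by more than 1.5 times, or from or to 0, as follows. In XX 3bp-del heterozygotes against XX WT it was 0 in 1 fit over all 12 groups. In XX 1bp-ins homozygotes against XY WT it was 1 by DESeq2 and 3 in the 12-group fit. In XX 3bp-del homozygotes against XY WT it was 5 by DESeq2, 3 in the 12-group fit, 1 by limma and 2 with the length trend removed. It was 4 without 4 libraries carrying mesonephros or adrenal markers. These were XX WT replicate 1, XY WT replicate 3, XX 3bp-del homozygote replicate 4 and XY 3bp-del heterozygote replicate 1. XX 1bp-ins heterozygote replicate 2 and XX 1bp-ins homozygote replicates 1, 3 and 4 also carried adrenal markers and were kept in that setting. In XX 3bp-12bp-del homozygotes against XY WT the number of genes called was 0 with no filter, 2 by DESeq2, 3 in the 12-group fit and 4 without the 4 marker libraries. Without those libraries it was 5 for the 1bp-ins interaction, 6 for the 3bp-12bp-del interaction (5 by DESeq2 and 5 in the 12-group fit) and 5 between XX and XY 3bp-del homozygotes. The causes were not tested, and the shares of all genes called in these settings are not set beside these counts.

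Direction turned for Gpc6 between the wild types (-0.37 without the marker libraries, -0.35 without XY WT replicate 3, up to 0.30 with others left out), Rps6ka1 by limma (-0.0061 in XX 1bp-ins and -0.037 in XX 3bp-del homozygotes), Fgfrl1 by limma (-0.045 in XX 3bp-del homozygotes), Fgfr1 with the length trend removed (0.17 in XX 3bp-del homozygotes, adjusted p = 0.0359) and Flrt3 in the 3bp-12bp-del interaction (-0.55 without the marker libraries, -0.62 without XY WT replicate 3, up to 0.50 with others left out).

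With each library left out in turn, 3 to 9 genes were called between the wild types, 6 to 7, 7 to 8 and 6 to 10 in XX 1bp-ins, then 3bp-del, then 3bp-12bp-del homozygotes against XX WT, and 0 to 2 in XX 3bp-del heterozygotes. The range was 0 to 3 and 0 to 4 in XX 3bp-del and 3bp-12bp-del homozygotes against XY WT, 5 to 7 and 6 to 7 against heterozygotes, and 2 to 5, 5 to 6 and 2 to 7 for the interactions. It was 4 to 4, 3 to 5 and 0 to 4 between XX and XY homozygotes, 9 to 9 and 7 to 8 between heterozygotes of the 2 sexes, and 0 to 0 in the other comparisons.

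In 0 of 21 comparisons did every same-numbered pair of libraries correlate above 0.1. The highest r of a same-numbered pair was 0.39, between XX and XY 1bp-ins homozygotes. Same-numbered pairs were not set against other pairs, so this does not show that the numbers carry no pairing. With the replicate block the Spry1 call in XX 3bp-12bp-del homozygotes against XY WT was lost, leaving 0 of the 10 genes. So were those of Fgfr3 between the wild types (adjusted p = 0.0635), Fgfr4 in XX 3bp-12bp-del homozygotes against XX WT (0.124) and Dusp6 in the 3bp-12bp-del interaction (0.123), and no other call of the 10 genes was.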
